A study of Triticum aestivum with 10 samples.

Results

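A set of 158 probe sets was at background on 1 array of early wheat grain. It was at a high signal by 200 degree days (DD) after pollination. The early array was labelled 130 DD and belongs to the nominal stage of 100 DD. A degree day adds up the daily temperature above a base, so that it measures developmental time. The set was chosen from 61179 probe sets of the Affymetrix wheat GeneChip, each a group of short probes designed against 1 transcript sequence. Members had a log2 signal under 4 on the array of 100 DD replicate 1 and at least 8 on both arrays of 200 DD. These levels were met by 174 probe sets, and 16 annotated as gliadin, serpin, thionin, PER1 or alpha-amylase inhibitor were left out, including TTHV and both probe sets of avnla, whose annotation carries a thionin or gliadin name only as a symbol or synonym. All members passed the filter on low values of the test used later (24727 probe sets tested), which they had to, since they were chosen for high signal on 2 arrays.

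The grain came from hexaploid bread wheat, Triticum aestivum cv. Récital, and held endosperm and embryo together. The plants were vernalised and then grown in a greenhouse under controlled temperature, light and humidity, and no treatments were compared. There were 5 stages of 2 arrays each. Replicate 2 was labelled with 100, 200, 250, 300 and 500 DD and replicate 1 with 130, 185, 230, 290 and 490 DD, and the nominal stages are used below. The replicates came from different years of growth according to the study's methods. A p-value here therefore measures the spread between 2 harvests that were also sampled at slightly different times. In the study's terms, 100, 200 and 250 DD belong to the cell division phase and 300 and 500 DD to grain filling.

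The cereal endosperm begins as a multinucleate cell that becomes cellular, divides, and then fills with starch and storage protein. The prolamins, which comprise the gliadins and the glutenins of gluten, are made on the rough endoplasmic reticulum of the starchy endosperm and packed into protein bodies. Their genes are largely silent in other tissues and are known to be transcribed strongly once storage begins. Avenin-like proteins are smaller, cysteine-rich relatives of these storage proteins. Small proteins that inhibit digestive enzymes of insects and microbes accumulate in the same cells. In whole grain RNA, more cells of a type and more RNA per cell cannot be told apart.

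The array labelled 100 DD replicate 2 stood apart from its label and was not used to choose the set or in the main fit. Over all 61179 probe sets it correlated with 500 DD replicate 2 at r = 0.9937 and with 100 DD replicate 1 at r = 0.8585. All 158 members lay within 1 log2 unit of their 500 DD replicate 2 value on it, with 129 at 8 or more and 12 under 4, against 0 and 158 on 100 DD replicate 1. The baseline at 100 DD therefore rests on 1 array. On that array the 5′ control of sucrose synthase read 4.53, the lowest of all 10 arrays, against 5.33 to 8.95 on the others, while its 3′ control read 10.94. The 5′ control of ubiquitin went the other way, at 13.71 the highest of all 10 arrays, against 13.10 to 13.62 on the others. The 3′ control of ubiquitin read 11.61 there. The mean of the added poly-A controls was 4.52 on 200 DD replicate 1 and 5.48 on 300 DD replicate 1, against 7.83 to 10.74 on the others. What part these differences have in the values below was not tested.

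The values that chose the set are a description. On 100 DD replicate 1 the members read 1.84 to 3.99 with a median of 2.81, where the median of all probe sets was 2.96. On the 200 DD arrays they read 8.02 to 15.19 in replicate 1 (median 10.33) and 8.12 to 15.27 in replicate 2 (median 11.55). A log2 difference of 1 is a 2-fold difference in signal, and signals of different probe sets are not compared as amounts of transcript. At the 100 DD limit, the member nearest to it read 3.99 and the nearest probe set outside read 4.003. At the 200 DD limit, the member nearest to it read 8.02 on its lower array and the nearest probe set outside read 7.91. There were 22 members within 0.5 of the first limit and 29 within 0.5 of the second.

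Over the members, the replicates differed more at 200 DD than at any later stage. Over all probe sets tested, the median of replicate 2 minus replicate 1 was -0.03 at 200 DD and -0.14 at 250 DD. Across the whole array the 200 DD replicates correlated at r = 0.9813, against 0.9745, 0.9751 and 0.9818 at 250, 300 and 500 DD. The members' replicate 2 signal, from grain labelled 200 DD, was above that of replicate 1, labelled 185 DD, in 149 of 158 probe sets, by at least 1 in 72 of them, with a median difference of 0.88. The replicates of later stages lay closer, with median differences over the members of 0.14 at 250 DD, -0.02 at 300 DD and 0.01 at 500 DD. The median SD within a stage was 0.64 at 200 DD, 0.20 at 250 DD, 0.13 at 300 DD and 0.21 at 500 DD. The 200 DD values were used to choose the set, so this gap is a description and was not tested. Its median was 1.60 in members that went on to higher values by 500 DD, 0.81 in those that held their level and 0.60 in those that declined. Labelled age, harvest and the low added controls of replicate 1 cannot be told apart in this gap.

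**Figure D1:**
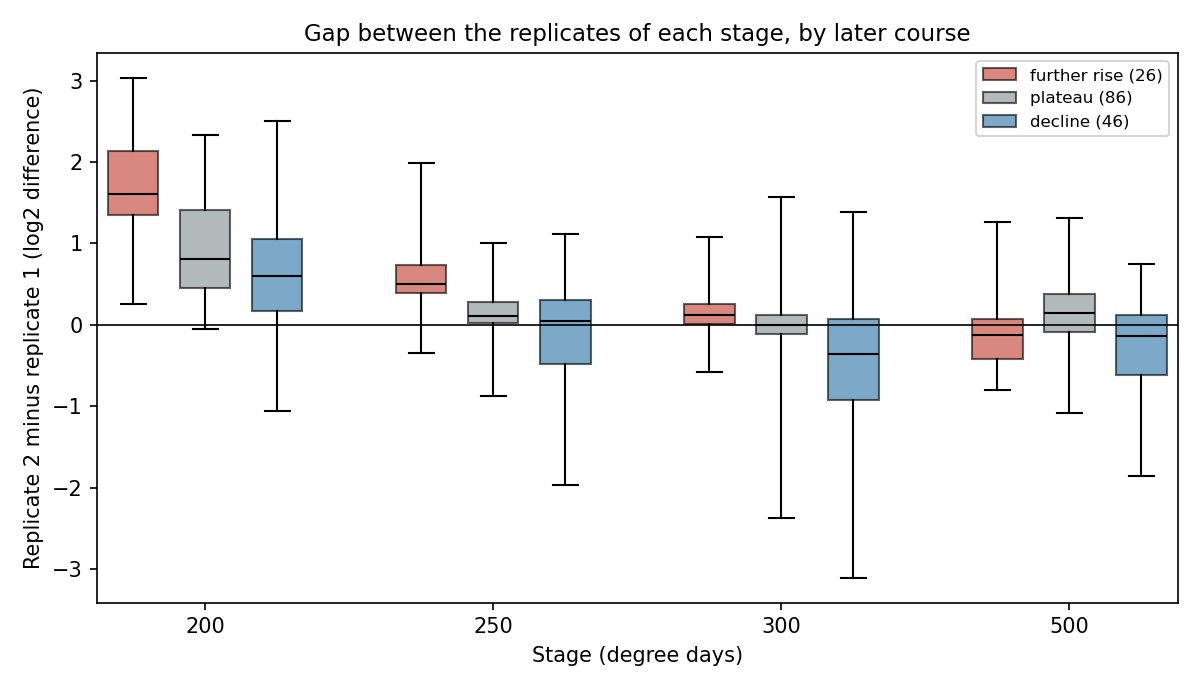
Replicate 2 minus replicate 1 (log2 difference) at each stage in degree days, for the members grouped by later course; boxes span the quartiles, lines mark medians and whiskers reach the lowest and highest probe set. At 200 DD all 3 boxes lie above 0, with medians of 1.60, 0.81 and 0.60, and by 500 DD the medians lie between -0.13 and 0.15.

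Most members held their signal after they had come on. The later course was classed by size, as the 500 DD mean minus the 250 DD mean, with a band of 1 on the log2 scale. By this measure 86 members (54.4%) stayed on a plateau, 46 (29.1%) declined and 26 (16.5%) went further up. Among the 5241 probe sets that were already at 8 or more on 100 DD replicate 1 and on both 200 DD arrays, 78.5% stayed within the band, 17.5% declined and 4.03% went up. Over all probe sets tested the shares were 76.4%, 13.2% and 10.3%. The plateau share was thus lower in the members than in either of these sets, a difference that was not tested. On all 6 arrays of 250, 300 and 500 DD, 128 members read 8 or more. The highest stage mean was at 200 DD in 19 members, at 250 DD in 29, at 300 DD in 73 and at 500 DD in 37.

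The 3 courses parted at different times. Plateau members had median stage means of 13.07, 13.59, 13.89 and 13.58 at 200, 250, 300 and 500 DD. The 26 members of the rise class had 9.67, 11.03, 12.26 and 13.01, and all 26 were higher at 300 DD than at 250 DD, 24 of them higher again at 500 DD. The declining members had 9.43, 9.65, 9.19 and 6.99. Their median step was -0.45 between 250 and 300 DD and -2.68 between 300 and 500 DD, and 11 of the 46 had a higher mean at 300 DD than at 250 DD.

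**Figure D2:**
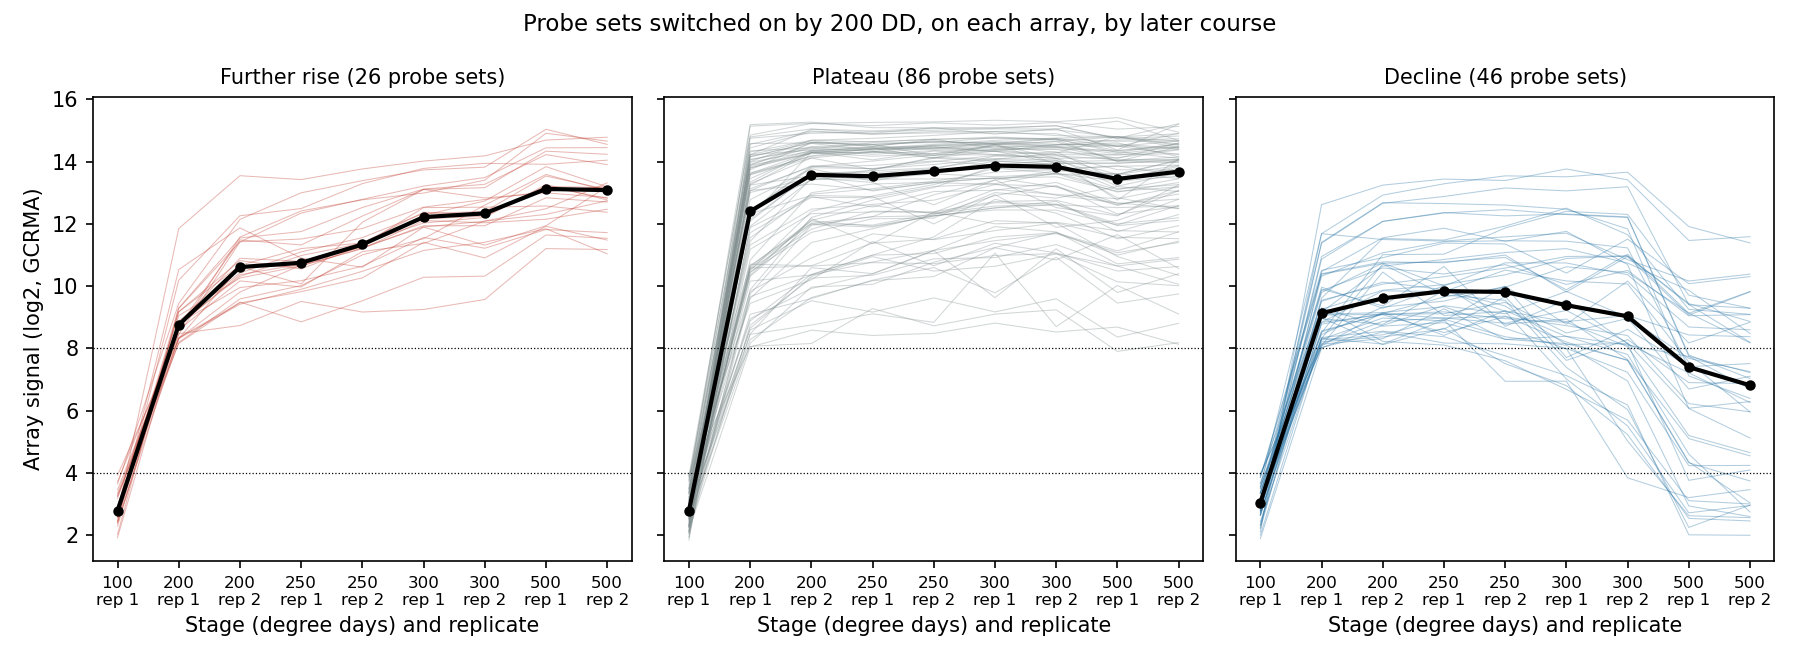
Log2 GCRMA signal of each member (thin lines) on 9 arrays, ordered by stage in degree days and replicate, in panels for the rise, plateau and decline classes; thick lines are medians per array and dotted lines mark 4 and 8. All members lie under 4 on 100 DD replicate 1, and the decline panel spreads to between 1.996 and 11.59 on 500 DD replicate 2.

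The first question for the arrays the rule had not used was whether the early signal lasted into late filling. At 500 DD, 38 members were lower than at 250 DD and 9 were higher, by limma's moderated test with Benjamini-Hochberg adjusted p under 0.05 over all 24727 probe sets tested. That is 24.1% lower and 5.7% higher, against 8.73% lower and 7.77% higher among all probe sets tested, where 16.5% changed in either direction. Among the probe sets expressed from the start, 15.9% were lower and 3.61% higher. The median difference was -0.13 over the members, -0.23 over the probe sets expressed from the start and -0.06 over all. No test of the members against either of these sets was made. All 47 members that passed moved in the same direction in both replicates, and their 500 DD arrays did not overlap their 250 DD arrays. The calls rest on these same arrays, so this describes the called members and is no further support. For 33 of the 158 members (20.9%), the 95% interval of the difference lay within 1 log2 unit of 0, against 31% of all probe sets tested, so that a missed threshold does not show an unchanged level in the others.

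Over all probe sets that entered each fit, 1922 were higher and 2159 lower at 500 DD against 250 DD in the main fit. With the 6 arrays of 250, 300 and 500 DD these counts were 1882 and 1971, and with all 10 arrays 49 and 109. The count of higher members depended on the arrays in the fit. It was 23 with the 6 arrays of 250, 300 and 500 DD, and 23 without either 200 DD array, the stage with the members' widest gap between replicates. It was 0 with all 10 arrays, where the 100 DD pair enters, and 1 without 250 DD replicate 1, 3 without 250 DD replicate 2, 4 without 300 DD replicate 1, 5 without 300 DD replicate 2 and 1 without either 500 DD array. The count of lower members was 35 with the 6 arrays, 13 with all 10, 25 without 500 DD replicate 2, and between 26 and 38 without any other array. Each of the 26 rise members, called or not, had both 500 DD arrays above both 250 DD arrays, and each of the 46 declining members had both below. The classes were set from the means of these same arrays, so this describes them and adds no support to the calls.

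**Figure D3:**
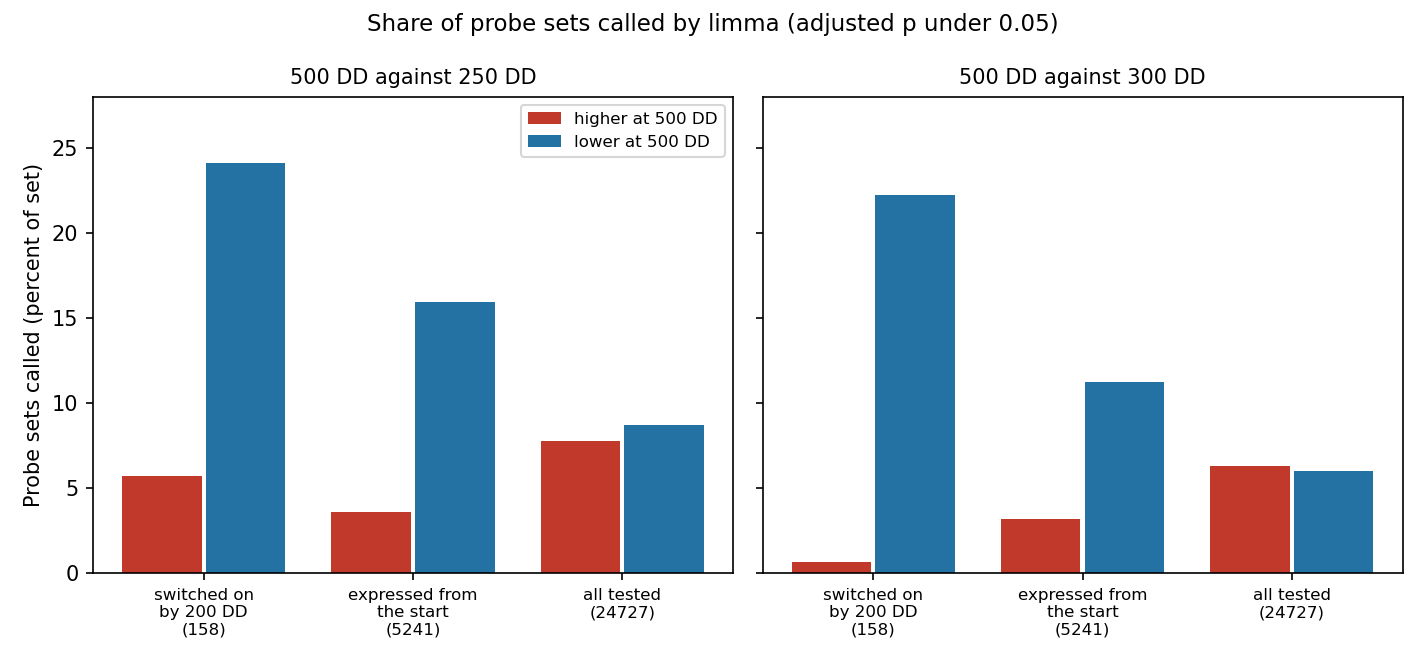
Percent of probe sets called higher or lower at 500 DD against 250 DD (left) and against 300 DD (right) for the members, the probe sets expressed from the start and all probe sets tested, with the number tested under each pair of bars. The members' lower bars reach 24.1% and 22.2%, against 8.73% and 6.01% over all probe sets tested.

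The members that fell were mostly those with modest signal, and those with the highest signal stayed within the band of 1. Of the 35 members with a 250 DD mean of 14 or more, all 35 were plateau members and 0 were called. Their differences lay between -0.78 and 0.28. In 13 of them both 500 DD arrays lay below both 250 DD arrays, and in 4 both lay above. Their signals ran up to 15.41, where the top reading of the whole table was 15.77, so that a change near the top of the array's scale may not be measurable. Whether their probes were saturated was not tested. Of the 32 members with a 250 DD mean under 10, 26 were declining members, of which 23 were called lower, 4 were plateau members, of which 1 was called lower, and 2 were rise members, both called higher. In the group of 10 to 12, 18 of 47 were rise members, 15 plateau and 14 declining. In the group of 12 to 14, 32 of 44 were plateau members, with 6 in each other class.

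**Figure D4:**
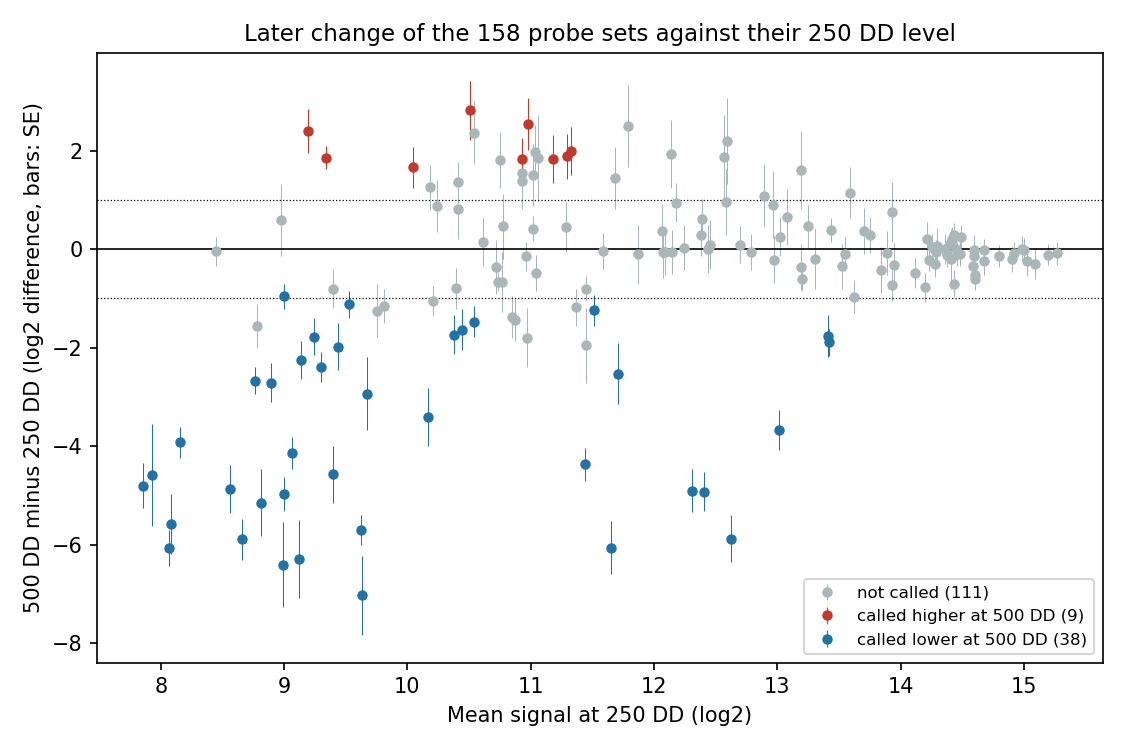
Difference of 500 DD minus 250 DD (log2) against the mean log2 signal at 250 DD for the 158 members, with bars for the standard error of the limma fit and dotted lines at the band of 1. The 38 called lower span the left and middle of the plot, and the 9 called higher lie at 250 DD means between 9 and 12. Above 14 all 35 points lie within the band.

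A few members went off again. At 500 DD, 8 members were back under 4 on both arrays, with 2.01 to 3.21 in replicate 1 and 1.996 to 3.46 in replicate 2, against 8.11 to 9.72 and 6.94 to 9.54 in the same replicates at 250 DD. Their 300 DD means, 5.39 to 7.53, lay between the stages on either side in all 8. All 8 were lower at 500 DD than at 250 DD by the limma test, and 7 were also lower than at 300 DD. A further 4 members were under 4 on 1 of the 500 DD arrays. None of the 8 carries a gene name in the annotation used.

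Most of the loss came after 300 DD. Between 500 DD and 300 DD, 35 members were lower and 1 was higher by the same limma test (22.2% and 0.633%), against 6.01% lower and 6.28% higher among all probe sets tested and 11.2% and 3.19% among those expressed from the start. The median difference was -0.34 over the members and -0.02 over all probe sets tested. Of the lower members, 31 were also lower than at 250 DD, 4 were lower only against 300 DD and 7 only against 250 DD. The single member higher at 500 DD than at both earlier stages, Ta.10741.1.S1_at, an unannotated probe set singled out here after its values were seen, read 9.51 and 9.17 at 250 DD, 9.25 and 9.57 at 300 DD, and 11.21 and 11.18 at 500 DD in replicates 1 and 2. Its 500 DD arrays lay above all 4 arrays of 250 and 300 DD, which overlapped each other. The lower count was 5 with all 10 arrays, 19 without 300 DD replicate 1, 21 without 500 DD replicate 1 and 16 without 500 DD replicate 2, and the higher count was 4 with the 6 arrays or without either 200 DD array, and 2 with the replicate number as a fixed block.

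Between 300 DD and 250 DD, 0 members passed in either direction by the limma test, with 24 of 158 at an unadjusted p under 0.05, and 0 by the methods' t-test. That unadjusted limit was met in the limma test by 1214 of all 24727 probe sets tested and by 199 of the 5241 expressed from the start. Over all probe sets tested 0.093% were higher and 0.0121% lower, 0.105% in either direction. The members' median difference was 0.14, with 110 of 158 higher at 300 DD, against a median of -0.05 over all probe sets tested and -0.11 over those expressed from the start.

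Few of these transcripts have a name. The annotation of the array gave a gene symbol for 21 members, from 15 genes, and none for 137. Only 6 members, from 3 genes, had a name that says more than a locus number: ALP (LOC100125692), Glu-3 (LOC543213) and wci (LOC542996). Both storage protein genes were plateau genes, and the inhibitor gene declined.

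ALP, also listed as avnlb, encodes an avenin-like b protein, a seed storage protein rich in cysteine. Its probe set Ta.27712.1.S1_at read 3.34 on 100 DD replicate 1, 14.35 and 14.44 at 200 DD, 14.33 and 14.12 at 250 DD, 14.34 and 13.95 at 300 DD, and 13.94 and 14.07 at 500 DD in replicates 1 and 2. Ta.27777.1.S2_s_at ran along the same course, with 2.27 at 100 DD and 13.94 to 14.53 from 200 DD on. Both had reached their level by the earlier of the 200 DD arrays, and both lie near the top of the scale. The third member, Ta.27777.1.S2_at, read 2.35 at 100 DD and 12.26 to 13.48 later. The 500 DD minus 250 DD differences were -0.30 for Ta.27777.1.S2_s_at (95% interval -0.93 to 0.34), -0.23 for Ta.27712.1.S1_at (-0.76 to 0.31) and -0.21 for Ta.27777.1.S2_at (-1.35 to 0.93), with limma adjusted p of 0.519, 0.564 and 0.811. Another probe set annotated to this gene, Ta.27777.1.S1_at, did not follow, since it read 10.48 already at 100 DD and 10.49 to 11.02 on the 8 arrays from 200 DD on, and was therefore no member.

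Glu-3 encodes a low-molecular-weight glutenin subunit, which is joined into the gluten polymer by disulphide bonds. Ta.160.2.S1_x_at read 3.45 at 100 DD, 12.08 and 13.63 at 200 DD, 13.64 and 13.76 at 250 DD, 14.18 and 14.18 at 300 DD, and 14.07 and 14.07 at 500 DD. Ta.160.1.S1_x_at read 2.30 at 100 DD, 11.18 and 12.33 at 200 DD, and 12.28 to 13.07 later. Unlike the ALP probe sets, both still had a clear gap between the 200 DD arrays, the younger grain of replicate 1 being lower. The 500 DD minus 250 DD differences were 0.36 (95% interval -0.75 to 1.48, limma adjusted p = 0.659) and 0.29 (-0.73 to 1.31, adjusted p = 0.706). Both probe sets carry the suffix _x_at, for probes that can cross-hybridise with other sequences, so that homoeologs and related glutenin genes can contribute to them.

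The gene wci encodes a chymotrypsin inhibitor, a small protein that blocks a digestive protease. It read 2.11 at 100 DD, 12.62 and 13.24 at 200 DD, 13.44 and 13.39 at 250 DD, 13.76 and 13.41 at 300 DD, and 11.47 and 11.59 at 500 DD. The arrays of 250 and 300 DD formed 1 level, and both 500 DD arrays lay below it without overlap. At 500 DD, wci was lower than at 250 DD by 1.89 (difference -1.89 ± 0.27 SE, adjusted p = 0.00544) and lower than at 300 DD by 2.06 (difference -2.06 ± 0.27 SE, adjusted p = 0.00567), both by limma. With all 10 arrays the first difference was the same, -1.89, but did not pass (limma adjusted p = 0.75). That fit takes in the 100 DD pair, on which wci read 2.11 in replicate 1, the value that chose it, and 11.46 in replicate 2. It therefore cannot judge the later course.

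**Figure D5:**
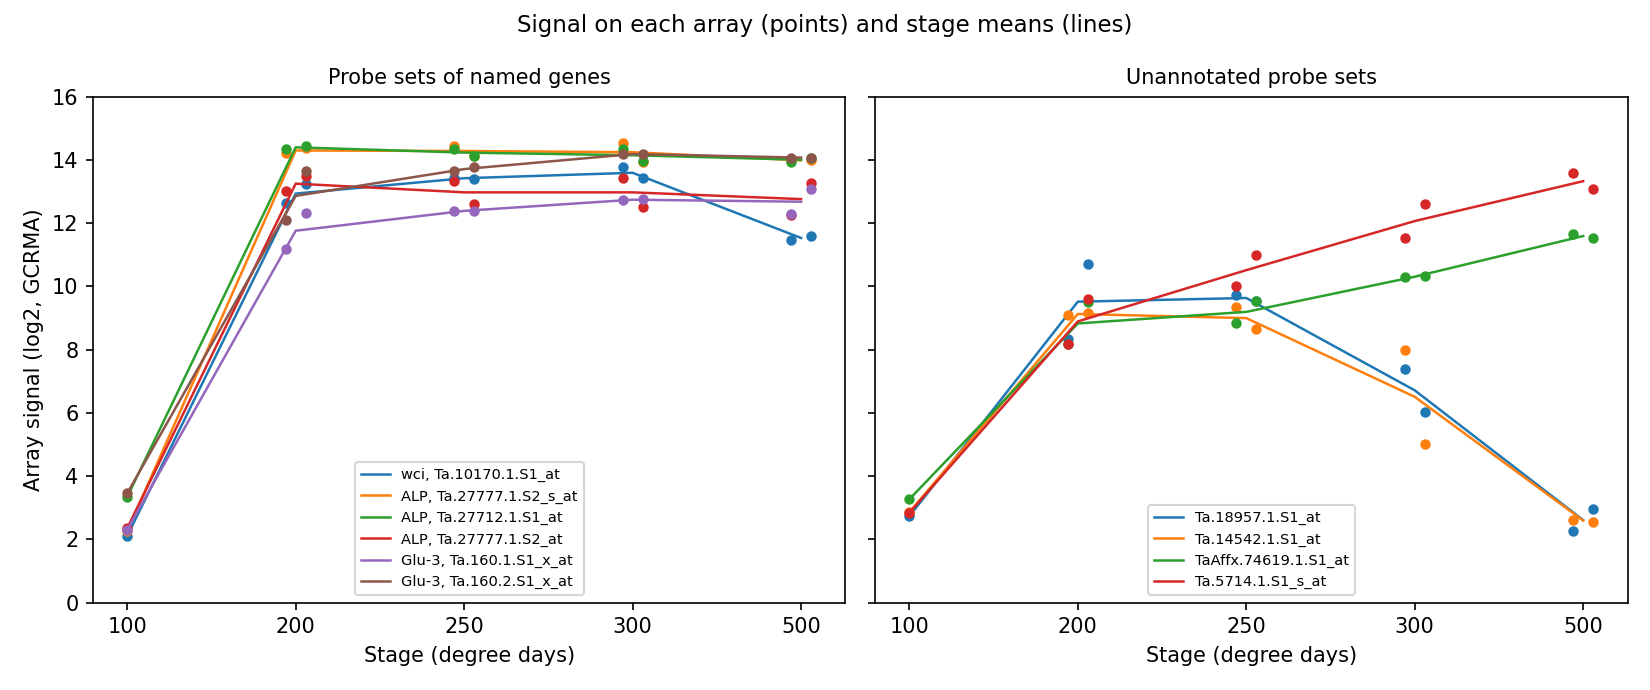
Log2 GCRMA signal on each array (points) with stage means (lines) against stage in degree days, spaced evenly, for the 6 members of named genes (left) and the 4 unannotated members with the largest called changes (right). The ALP and Glu-3 probe sets keep their level, wci ends at 11.47 and 11.59, and Ta.18957.1.S1_at and Ta.14542.1.S1_at return to between 2.25 and 2.97 at 500 DD.

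Another 15 members, from 12 genes, have a locus number only, and those singled out here were chosen after their values were seen. By the course from 250 to 500 DD, 13 of them were plateau members, 1 was a rise member and 1 declined. LOC100125699 (Ta.355.1.S1_at) read 3.93 at 100 DD, 8.31 and 9.81 at 200 DD, 10.68 and 11.28 at 250 DD, 12.27 and 12.74 at 300 DD, and 13.84 and 13.19 at 500 DD. It was higher at every later stage, and at 500 DD exceeded 250 DD by 2.53 ± 0.53 (SE, limma adjusted p = 0.0215). LOC780587 (Ta.11127.2.S1_a_at) read 3.49 at 100 DD, 9.90 and 9.36 at 200 DD, 10.63 and 8.71 at 250 DD, 9.55 and 8.15 at 300 DD, and 7.21 and 6.26 at 500 DD. Its 500 DD arrays were the lowest after 100 DD, with a difference from 250 DD of -2.93 ± 0.74 (SE, adjusted p = 0.0416). Neither call held without certain arrays. That of LOC100125699 was lost without any 1 of the 250 or 500 DD arrays (adjusted p between 0.059 and 0.123), and that of LOC780587 with the 6 arrays of 250 to 500 DD and without either 200 DD array, 250 DD replicate 1 or either 500 DD array (adjusted p between 0.0641 and 0.191).

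The remaining 13 of these probe sets, among them LOC543098, LOC543265, LOC542894 and LOC542918, differed by -0.96 to 0.81 between 500 DD and 250 DD, and 0 passed. LOC543098 was at the top of the scale, with 13.74 and 14.62 at 200 DD and 14.49 to 14.74 later. LOC732704, at -0.96, passed with the 6 arrays of 250 to 500 DD only or without either 200 DD array (adjusted p = 0.0407, 0.0421 and 0.0421). The gene table of RefSeq for the assembly IWGSC CS RefSeq v2.1 places LOC542894 directly beside LOC542895, an avenin-like b gene, with 1 gene between it and avnla. By the same source 8 genes lie between LOC543265 and the low-molecular-weight glutenin gene LOC100125697, and 6 between LOC542851 and the Glu-A3 gene LOC606388. LOC542894 read 13.25 and 14.29 at 200 DD and 14.17 to 14.48 on the later arrays, a plateau course shared by 86 of the 158 members. Whether it encodes a storage protein was not tested. LOC543265 read 12.39 and 13.80 at 200 DD and 13.59 to 14.20 later.

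Among the 137 unannotated members, 8 were called higher and 36 lower at 500 DD against 250 DD. Over all 24727 probe sets tested, 7.77% were higher and 8.73% lower. Ta.5714.1.S1_s_at had the largest called increase, with 8.19 and 9.59 at 200 DD, 10.02 and 11.003 at 250 DD, 11.52 and 12.60 at 300 DD, and 13.59 and 13.06 at 500 DD. The difference from 250 DD was 2.81 ± 0.60 (SE, limma adjusted p = 0.0238). TaAffx.74619.1.S1_at followed with 8.16 and 9.49 at 200 DD, 8.85 and 9.53 at 250 DD, 10.28 and 10.32 at 300 DD, and 11.64 and 11.54 at 500 DD, a difference of 2.40 ± 0.45 (SE, adjusted p = 0.0151). For both, the 3 stages from 250 DD on did not overlap, and both calls were lost without 250 DD replicate 1 or without either 500 DD array (adjusted p between 0.0757 and 0.13). These calls and those of LOC100125699 and LOC780587 were also lost with all 10 arrays (adjusted p between 0.241 and 0.665) and without a filter (adjusted p between 0.0699 and 0.17). The fit of all 10 arrays takes in the 100 DD pair. There these probe sets read under 4 in replicate 1, as the rule asks, and 6.69 to 13.30 in replicate 2.

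The largest called decreases ended at background. Ta.18957.1.S1_at read 8.32 and 10.71 at 200 DD, 9.72 and 9.54 at 250 DD, 7.39 and 6.03 at 300 DD, and 2.25 and 2.97 at 500 DD, with a difference of -7.02 ± 0.80 (SE, limma adjusted p = 0.00232). Ta.14542.1.S1_at read 9.10 and 9.15 at 200 DD, 9.34 and 8.65 at 250 DD, 7.99 and 5.02 at 300 DD, and 2.62 and 2.56 at 500 DD, with a difference of -6.40 ± 0.86 (SE, adjusted p = 0.0041). Both were already below their 250 DD arrays at 300 DD, where replicate 2 was the lower array. Both calls were kept with the 6 arrays and without any 1 array. They were also kept with all 10 arrays, but that fit takes in the 100 DD pair, whose replicate 1 values chose the members. On replicates 1 and 2 of 100 DD, Ta.18957.1.S1_at read 2.73 and 2.39 and Ta.14542.1.S1_at read 2.86 and 2.65. Keeping the calls in that fit therefore adds no support.

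Probe sets of 1 sequence cluster moved together in most cases. The number in a probe set's name gives the sequence cluster it was designed from, and the members came from 114 clusters, of which 28 held 2 or more members (72 members). In 24 of these 28 clusters all members had the same later course. The spread of the 500 DD minus 250 DD difference within a cluster had a median of 0.31 and reached 1.80. Such members may read the same transcript, so that the 158 probe sets stand for fewer genes. Probe sets that can match several transcripts (suffix _a_at, _s_at or _x_at) made up 51.3% of the members, against 35.3% of all probe sets tested. Among the unannotated members, 6 shared a cluster number, Ta.24114 or Ta.30782, with a left-out gliadin probe set. All 6 were plateau members with 0 called. They stayed in the set because they carry no gene name, so the set may still hold gliadin probe sets.

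Other genes of the same pathways gave the setting, with calls at 500 DD against 250 DD by the limma test. Of the 8 glutenin and avenin-like probe sets tested, 5 of them members and 2 left out, 0 were called, with a median of 0.14. Of 3 inhibitor probe sets, wci was lower, and both probe sets of XIP-I, a xylanase inhibitor, had differences of 3.41 and 3.47 that did not pass (adjusted p = 0.0623 and 0.123). Of 3 starch and sucrose enzyme probe sets, 2 were lower and none was a member. The small subunit of ADP-glucose pyrophosphorylase, AGP-S, which makes the sugar donor for starch, was lower by a difference of -1.10, and the beta-amylase BMY1, which splits maltose from starch, by -5.62. Of 2 lipid transfer protein probe sets 1 was lower, of 2 folding protein probe sets 1 was higher, and of 8 defence and oxidative stress probe sets 4 were lower and 1 was higher. The list of transcription factors held 0 named probe sets.

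Marker genes of the tissues in the sample moved over the same stages, and their part in the members' changes was not tested. The 10 probe sets of starchy endosperm, several of them left-out gliadins and thus chosen by the same rule, averaged 12.77 to 12.82 per array at 500 DD, against 12.85 to 13.08 at 250 DD, with 0 called. The 9 probe sets of embryo and late maturation averaged 12.58 to 12.74 at 500 DD, against 2.60 to 2.72 at 250 DD, and all 9 were higher. All 4 tested probe sets of green tissue were lower, with averages of 6.34 to 7.002 at 500 DD, against 9.61 to 9.88 at 250 DD. Of the 16 histone probe sets that mark dividing cells 13 were lower, with averages of 5.01 to 5.93 at 500 DD, against 8.70 to 8.72 at 250 DD. At 250 DD every embryo marker was under 4, and at 500 DD no marker of starchy endosperm or embryo was.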

How the data were processed

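RNA from grain of 5 stages was hybridised to 10 Affymetrix wheat arrays. The authors normalised the arrays with GCRMA (version not given in the sources used here), which corrects background, sets all arrays to 1 distribution and summarises each probe set, and deposited the values on a log2 scale; 0 columns were left out. From these, limma 3.58.1 in R 4.3.3 (statmod 1.5.0 for the random block) fitted a mean per stage to 9 arrays, without the one labelled 100 DD replicate 2. Controls were left out, and probe sets with at least 4 on at least 2 arrays entered. A call is a two-sided Benjamini-Hochberg adjusted p under 0.05 over all 24727 probe sets, and the 3 comparisons used stages that had not chosen the members. The 200 DD arrays entered the estimate of spread. The script was tested on simulated data. The members and lists were chosen with earlier results of these data known. Quantile normalisation moves a change shared by all transcripts into the values of each.

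Gene names came from the array's annotation (1273 of 61179 probe sets, of which 1272 matched RefSeq). By rule, members with a name beyond a locus number, and the 2 largest called increases and decreases among unannotated members, were named, and others only as stated. Same-numbered replicates deviated together in all 6 pairs of stages (r = 0.2493 to 0.7181), so that the numbers pair the arrays; they stand for harvests by the nearness of their labelled ages to the sampling times in the methods. Alternatives covered the arrays, the block, the normalisation, the filter, the prior, the adjustment, the methods' t-test and the limits of the rule. The number of arrays limits the precision.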

Additional observations from a re-analysis of the deposited data

Results flagged for a closer look

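On the array labelled 100 DD replicate 2, which the comparisons do not use, 129 members read 8 or more, against 0 on 100 DD replicate 1 of the same nominal stage.

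For some annotated members the 500 DD minus 250 DD difference had opposite signs in the 2 replicates, and the difference between the replicates was not tested. Of the 158 members, 32 had opposite signs and 0 of these were called. Among the named genes, Ta.27777.1.S2_at of ALP differed by 0.65 in replicate 2 and -1.07 in replicate 1. Ta.160.1.S1_x_at of Glu-3 differed by 0.68 in replicate 2 and -0.10 in replicate 1. LOC543308 differed by 0.17 in replicate 2 and -1.01 in replicate 1. The others lay close to 0 in both replicates. In replicate 2 they differed by 0.030 (LOC543265), -0.24 (LOC542851, Ta.28792.1.S1_x_at), -0.14 (both probe sets of LOC542918), 0.030 (LOC543098) and -0.011 (LOC542955). In replicate 1 they differed by -0.18 (LOC543265), 0.11 (LOC542851), 0.018 and 0.041 (LOC542918), -0.061 (LOC543098) and 0.30 (LOC542955).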

How the results depend on the processing

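Of 539 alternative values of single members 473 kept their direction and side of the threshold, 46 no longer passed, 3 newly passed and 17 changed sign. The sign changes fell on 10 probe sets, of which 0 were called, each without 1 of the 250 or 500 DD arrays and, for LOC543098, also with arrays centred on the median (0.022). Leaving out 1 array, the 500 DD minus 250 DD difference ranged from -0.71 to 0.29 for Ta.27777.1.S2_at (ALP), -0.10 to 0.68 for Ta.160.1.S1_x_at (Glu-3), -1.08 to 0.24 for LOC543308, -0.33 to 0.043 for Ta.28705.1.S1_s_at (LOC542926), -0.30 to 0.14 for LOC543265, -0.31 to 0.19 for Ta.28792.1.S1_x_at (LOC542851), -0.22 to 0.10 and -0.24 to 0.14 for LOC542918, -0.10 to 0.071 for LOC543098 and -0.12 to 0.41 for LOC542955. For 500 DD against 250 DD, 9 members were higher and 38 lower. The higher count was 0 with all 10 arrays, 23 with the 6 arrays of 250 to 500 DD, 1 without a filter, and 0 with Bonferroni adjustment and under the methods' t-test with either adjustment. The lower count was 13 with all 10 arrays, 25 without a filter, 2 with Bonferroni adjustment, and 0 and 1 under the methods' t-test with Bonferroni and Benjamini-Hochberg adjustment. For 500 DD against 300 DD, with 1 higher and 35 lower, the higher count was 0 with all 10 arrays, 4 with the 6 arrays, 2 with the fixed replicate block, and 0 with Bonferroni adjustment and both forms of the t-test. The lower count was 5 with all 10 arrays, 20 without a filter, and 0 with Bonferroni adjustment and both forms of the t-test. Leaving out 1 array at a time gave 1 to 23 higher and 25 to 38 lower against 250 DD, 1 to 4 higher and 16 to 36 lower against 300 DD, and 0 between 300 and 250 DD. With the fixed replicate block, 12 were higher and 42 lower against 250 DD and 40 lower against 300 DD, and the block moved no other count by over 1.5 times. With all 10 arrays, 49 were higher and 109 lower against 250 DD over all probe sets that entered, and 13 and 32 against 300 DD. That fit adds only 100 DD replicate 2, so differences between later stages stayed the same, as for wci against 250 DD (-1.89). On the added array 129 members read 8 or more, against 0 on 100 DD replicate 1, which chose the members. The cause of the lost calls was not tested.

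The set held 158 probe sets. It held 98 with 100 DD replicate 1 under 3, 77 with the suffixes for several transcripts left out, and, as alternatives added after the data were seen, 161 with TTHV and avnla kept, and 218 and 163 without 200 DD replicate 1 and replicate 2. The shares of rise, plateau and decline were 22.2%, 40.5% and 37.3% with a band of 0.5, 3.8%, 78.5% and 17.7% with a band of 2, and 28.5%, 48.1% and 23.4% measured from 200 DD. Without 1 array of 250 or 500 DD, they ranged from 13.9% to 19.0%, 51.3% to 56.3% and 28.5% to 29.7%. Whether signals near background or near the top of the scale understate a difference was not tested.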
